A study of Mus musculus with 6 samples.

Results

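Iron, ferritin and haem handling genes were examined in injured mouse quadriceps muscle by bulk RNA sequencing. The set was chosen by symbol and holds 10 genes: Hmox1, Blvra and Blvrb for haem breakdown, Fth1 and Ftl1 for iron storage, Tfrc, Slc11a1 and Slc11a2 for iron uptake and transport, and Slc40a1 and Cp for iron export. All 10 were listed among the 14015 genes with a symbol in the deposited table. The muscle came from 3 WT mice and 3 GATA-1 mutant mice, the latter being the eosinophil-deficient ΔdblGATA strain, in which a GATA-binding site in the promoter of Gata1 is deleted in every cell of the animal. All 6 mice had volumetric muscle loss, a surgical removal of part of the quadriceps, received no implant, and were studied at day 7. In the study's methods the control wound was filled with saline. WT mice were young adult C57BL/6 females per the study's methods, while the age and sex of the mutant mice were not given in the sources used here. The design implies a comparison of the genotypes. The deposited table carries that comparison only as the authors' own results, which were not used, so no difference between WT and GATA-1 mutant mice is given. What was used is 1 value per gene, the authors' mean log2 CPM (read counts scaled to a common library total, on a log2 scale) over the libraries of both genotypes. It has no spread, and the depth of each library is unknown. The levels below therefore describe injured muscle of both genotypes pooled, and no order among them was tested.

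Damaged muscle releases haem from myoglobin and from red blood cells. Macrophages take it up, partly through the haemoglobin receptor Cd163, and haem oxygenase opens the ring to give iron, carbon monoxide and biliverdin. The iron is stored in ferritin or leaves the cell through ferroportin. Cells also match iron supply to need after transcription. When iron is scarce, the iron regulatory proteins bind a short hairpin in mRNA, the iron-responsive element. Bound near the start of a ferritin or ferroportin mRNA, they block translation, and bound in the 3' UTR of the transferrin receptor mRNA, they protect it from decay. An mRNA level of these genes is for this reason only part of their control.

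The elements are shown first because they are what several members share in sequence, although they were not used to choose the members. Ferritin, ferroportin and transferrin receptor mRNAs, named above, are known to carry the element. Their matches were thus foreseen, and the share of all genes is given only as description. Coding transcripts of GENCODE M21 (GRCm38) were searched on the sense strand for the core of the element, which is a C, 5 nt, the loop CAGTGN, and 5 nt, where both 5-nt arms must pair with each other by Watson-Crick or G-U pairs. With all 5 pairs required, 4 of the 10 members had a match, namely Fth1, Ftl1, Slc40a1 and Tfrc. Among the 13691 listed genes with a coding transcript, 232 (1.69%) had a match. Each match is printed 5' to 3' with 6 nt on either side and the 6-nt loop in capitals.
Fth1, 5' UTR: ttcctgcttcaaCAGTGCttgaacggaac
Ftl1, 5' UTR: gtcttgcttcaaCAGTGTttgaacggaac
Slc40a1, 5' UTR: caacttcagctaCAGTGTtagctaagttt
Tfrc, 3' UTR, 1: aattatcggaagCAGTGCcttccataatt
Tfrc, 3' UTR, 2: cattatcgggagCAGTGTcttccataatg
Tfrc, 3' UTR, 3: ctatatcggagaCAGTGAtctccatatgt
Tfrc, 3' UTR, 4: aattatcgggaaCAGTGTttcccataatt
Slc11a2, 3' UTR, 4 of 5 pairs: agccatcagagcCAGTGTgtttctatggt

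The Fth1 match lay at chr19:9982732-9982760 on the plus strand of GRCm38, and ended 109 nt before the start codon. It was in exon 2 of the longest transcript (1494 nt) and in exon 1 of the next (929 nt), and was present in 4 of the 5 coding transcripts. That of Ftl1 lay at chr7:45459779-45459807 on the minus strand, in exon 1 and 147 nt before the start codon. For Slc40a1 it lay at chr1:45925465-45925493 on the minus strand, in exon 1 and 201 nt before the start codon. These were all 5' UTR matches, a place where only 26 of the listed genes (0.190%) had one. The 4 Tfrc matches all lay in exon 19 of 19 of its longest transcript, on the plus strand, from chr16:32631219-32631247 to chr16:32631710-32631738. The first began 885 nt after the stop codon and the last 1376 nt after it. Among annotated coding transcripts, the match was in 1 of 2 for Ftl1, 1 of 4 for Slc40a1 and 1 of 3 for Tfrc. In the 3' UTR, 107 listed genes (0.782%) had a match.

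When 1 unpaired position was allowed in the arms, Slc11a2 and Slc11a1 also matched. The Slc11a2 match was in the 3' UTR of its longest coding transcript (chr15:100395153-100395181, minus strand, exon 16), beginning 34 nt after the stop codon, and was absent from the other 5 coding transcripts. The Slc11a1 match was in coding sequence. This looser search matched 1711 listed genes (12.5%). Hmox1, Blvra, Blvrb and Cp had no match in either search, which says only that these letters were not in their transcripts. Of the 53 listed genes in a wider list of iron and haem genes, Alas2, the erythroid enzyme of the first step of haem synthesis, had a 5' UTR match with all 5 pairs, and Keap1, an inhibitor of the stress response factor Nfe2l2, had one in coding sequence.

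**Figure D1:**
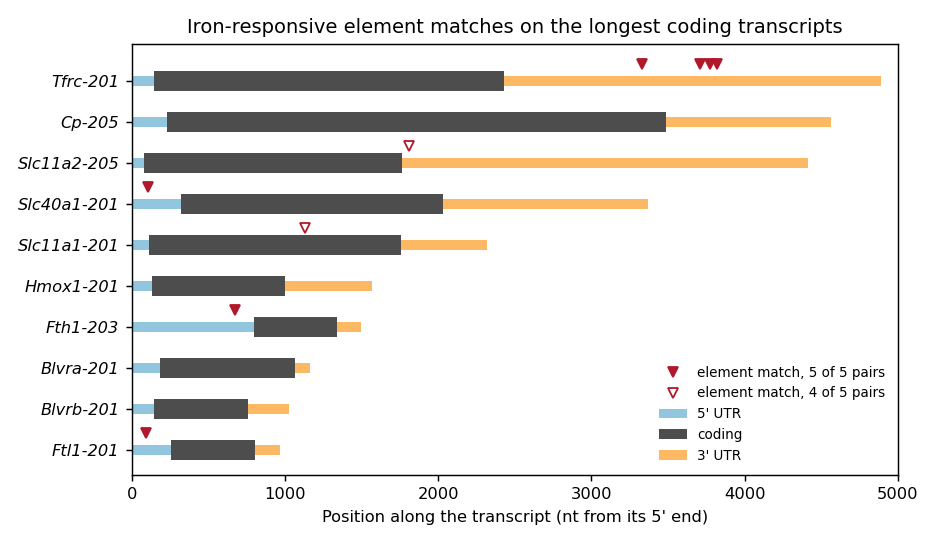
Longest coding transcript of each member drawn to scale in nt from its 5' end, with the 5' UTR in blue, the coding sequence in dark gray and the 3' UTR in orange. Filled triangles mark element matches with 5 of 5 pairs and open triangles those with 4 of 5. Fth1, Ftl1 and Slc40a1 carry theirs before the coding sequence, and Tfrc carries 4 after it.

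Ferritin transcripts were the most abundant of the set. Fth1, the heavy subunit that oxidizes iron on entry, had a mean of 10.38 log2 CPM in the authors' table, which corresponds to a geometric mean of 1333 CPM. It ranked 59 among the 14015 genes, so that 99.6% of genes were lower. Ftl1, the light subunit that favors mineral formation inside the shell, had a mean of 9.61 log2 CPM (geometric mean 781 CPM) and ranked 100. Both lay far above the median of all genes, 4.03 log2 CPM, and below Mb, the oxygen-binding haem protein of muscle, at 10.70 log2 CPM.

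The ferritin genes sit at chromosome 19, 9980598 to 9985098 (Fth1), and chromosome 7, 45457944 to 45459884 (Ftl1), of GRCm38. Levels of different genes can be compared only per length, so each mean log2 CPM was reduced by the log2 of the longest coding transcript in kb. On this per-length scale Fth1 was at 9.80 and Ftl1 at 9.66, a heavy to light ratio of 1.11. The ratio followed the transcript chosen for Fth1. With the Fth1 transcript of 929 nt in place of the longest it was 1.78, with the mean length of coding transcripts 1.62, and with the longest transcript of any kind 0.801, where Ftl1 was the higher. Which of the subunits had more mRNA can thus not be read from these values.
The value for Ftl1 is uncertain for a further reason. Of the 31-base words in its longest coding transcript, 94.9% also occur in transcripts of other genes, led by Ftl1-ps1 with 80.6%, which the annotation gives as protein coding. Of the 33 genes that share words with Ftl1, 17 are annotated as pseudogenes and only Cars was listed in the table, sharing 1.92% of the words. Reads of Ftl1 copies could therefore have been counted with it or withheld from it. Fth1 shared 7.92% of its words, all with 3 annotated pseudogenes, none of which was listed.

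Tfrc, the transferrin receptor through which most cells import iron, was the third most abundant member at 7.37 log2 CPM (geometric mean 165 CPM, rank 718). It was the only other member in the top 10% of listed genes, which began at 6.57 log2 CPM. Its transcript is long (4890 nt, of which 2461 nt are 3' UTR), and per length it stood at 5.08, above 89.0% of genes and just below the top 10%. The gene lies on chromosome 16 of GRCm38, 32608920 to 32632794, and none of its 31-base words occurs in another gene.
The metal transporters stood lower. Slc11a2, which encodes DMT1 and carries ferrous iron out of endosomes, had a mean of 5.06 log2 CPM, above 69.7% of genes. Slc11a1, which encodes NRAMP1 and pumps metal ions out of phagosomes of macrophages, had the lowest mean of the set, 3.71 log2 CPM (geometric mean 13.1 CPM), above 44.2% of genes. Per length the pair stood at 2.92 and 2.50, with longest transcripts of 4415 and 2315 nt, a ratio of 1.33. With the mean length of coding transcripts, where Slc11a2 is the shorter (1607 nt against 2104 nt), the ratio was 3.33. Tfrc exceeded Slc11a2 4.48-fold per length, and 3.46-fold with the mean length. Slc11a2 is on chromosome 15 (100387898 to 100425072) and Slc11a1 on chromosome 1 (74375195 to 74386062) of GRCm38. Slc11a1 shares 4.64% of its words, in short stretches, with 1081 other genes.

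**Figure D2:**
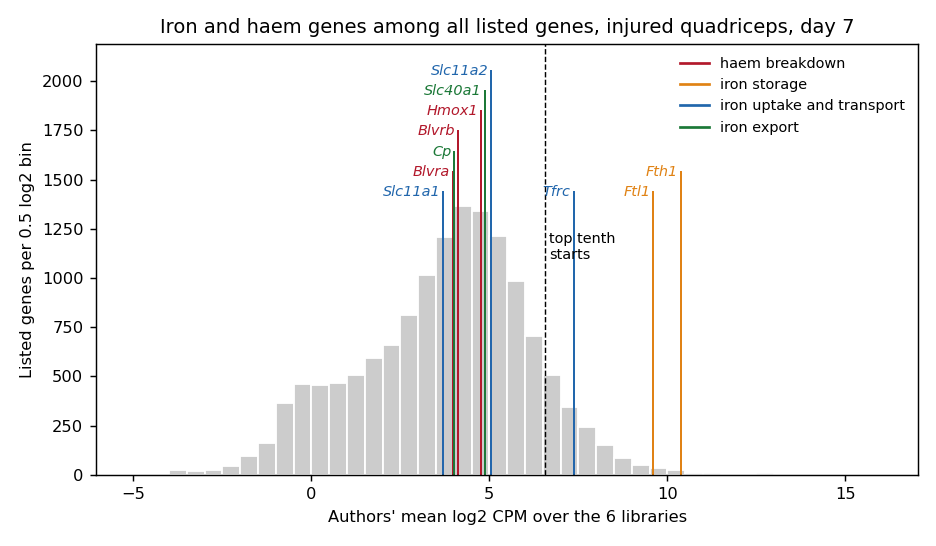
Gray bars give the number of listed genes per 0.5 log2 bin of the authors' mean log2 CPM over the 6 libraries, and colored lines mark the 10 members by role, their heights chosen for legibility. The dashed line at 6.57 log2 CPM is where the top 10% of genes starts. Fth1, Ftl1 and Tfrc lie to its right and the other 7 members near the middle of the distribution.

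The genes of haem breakdown were found near the middle of the distribution. Hmox1, the inducible haem oxygenase, had a mean of 4.77 log2 CPM (geometric mean 27.3 CPM), above 64.3% of genes. Blvrb, which encodes biliverdin reductase B, a reductase of flavins and of some biliverdin isomers, was at 4.12 log2 CPM. Blvra, which encodes the reductase that turns biliverdin into bilirubin, was at 3.97 log2 CPM, slightly below the median of all genes. These are short transcripts of 1569, 1028 and 1160 nt, so per length the 3 genes ranked higher, above 79.6%, 79.0% and 74.4% of genes. Their per-length levels of 4.12 (Hmox1), 4.08 (Blvrb) and 3.75 (Blvra) spanned 0.37 on the log2 scale.
Hmox2, the constitutive haem oxygenase, was listed at 5.35 log2 CPM. Per length it was 1.36 times Hmox1, and 2.27 times with the mean length of coding transcripts. Cd163 was listed at 3.54 log2 CPM and at 1.38 per length, so that Hmox1 exceeded it 6.67-fold per length. None of the 31-base words of Hmox1, Blvra or Blvrb occurs in another gene. In GRCm38, Hmox1 lies on chromosome 8 (75093621 to 75100589), Blvrb on chromosome 7 (27447978 to 27466144) and Blvra on chromosome 2 (127070665 to 127097084).

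Slc40a1, which encodes ferroportin, the known route for iron out of cells, had a mean of 4.86 log2 CPM (geometric mean 29.1 CPM), above 66.1% of genes. Cp encodes ceruloplasmin, a copper oxidase that converts exported iron to the form that transferrin binds, and was at 4.01 log2 CPM. With a transcript of 4564 nt, Cp was the lowest member per length, at 1.82, and the only member under the median of all genes on that scale (2.31). With the mean length of coding transcripts Cp was at 2.55, and with the longest transcript of any kind Slc11a1 was at 2.26. The median of all genes was taken only with the longest coding transcript, so the place of either gene beside it depends on that choice. Slc40a1 exceeded Cp 2.44-fold per length, and 4.33-fold with the mean length of coding transcripts. Tfrc in turn exceeded Slc40a1 3.91-fold, and 2.83-fold with the mean length. Cp is best known as a secreted protein of the liver. Of 5 hepatocyte markers, only Alb (-1.41 log2 CPM) and Apoa1 (-3.08 log2 CPM) were listed, both near the bottom of the table. Cp overlaps Hps3 on the opposite strand, listed at 3.40 log2 CPM, and whether reads were assigned by strand was not given in the sources used here. The longest coding transcript of Cp, however, shares no word of the length used above with another gene's transcripts, Hps3 included, in either orientation. Words of the other Cp transcripts were not compared. Slc40a1 is on chromosome 1 (45908068 to 45926523) and Cp on chromosome 3 (19957054 to 20009145) of GRCm38.

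Ordered by per-length level, the members ran Fth1, Ftl1, Tfrc, Hmox1, Blvrb, Blvra, Slc40a1, Slc11a2, Slc11a1 and Cp. The widest step between neighbors was that from Ftl1 to Tfrc, 4.58 on the log2 scale. Smaller steps separated Hmox1 from Blvrb (0.04), Fth1 from Ftl1 (0.15) and Slc40a1 from Slc11a2 (0.20), and in each of these pairs the order turned under at least 1 other choice of transcript length. Wider steps turned as well. With the mean length of coding transcripts, the order after Tfrc was Slc40a1, Blvrb, Slc11a2, Blvra, Hmox1, Slc11a1 and Cp. Fth1, Ftl1 and Tfrc held the first 3 places, and Slc11a1 and Cp the last 2, under all 4 length choices, with Ftl1 ahead of Fth1 when the longest transcript of any kind was used. The spread between mice is not known, so no step can be set against it.

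**Figure D3:**
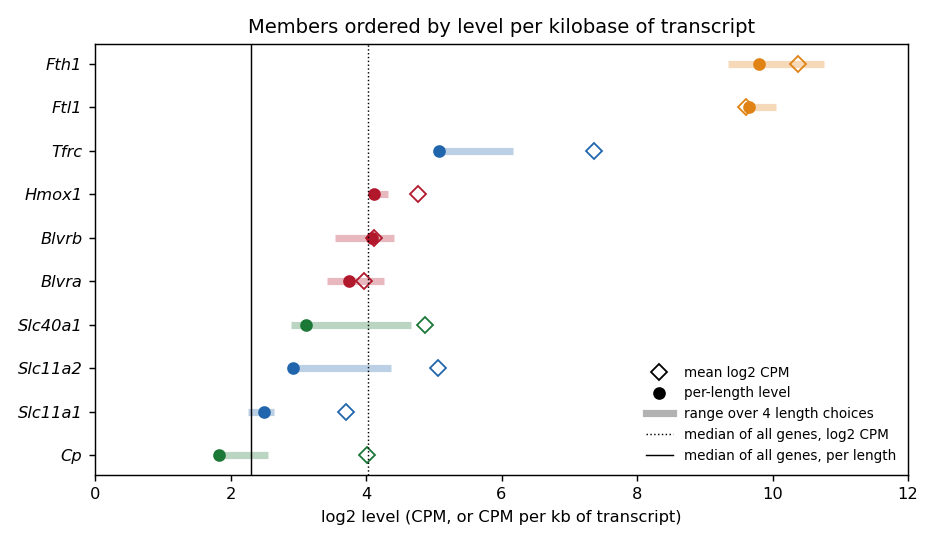
Members in the order of their per-length level (filled circles, log2 CPM per kb of longest coding transcript), with the authors' mean log2 CPM as open diamonds and a bar for the range of the per-length level over 4 choices of transcript length. Vertical lines are the medians of all genes on each scale, 2.31 per length and 4.03 log2 CPM. Fth1 and Ftl1 lie apart from the rest at 9.80 and 9.66, and the filled circle of Cp alone is left of the per-length median.

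The other genes of the pathway were taken from a list of 58, of which 53 were listed. Their median was 5.19 log2 CPM, against 4.82 for the 10 members and 4.03 for all genes, and 38 of the 53 and 7 of the 10 were above that of all genes. Per length the members were instead the higher list, with a median of 3.92 against 3.53 for the wider list and 2.31 for all genes. In haem capture, Lrp1, a receptor for haem bound to haemopexin, reached 8.29 log2 CPM, and Hp, haptoglobin, the plasma binder of free haemoglobin, 6.70 log2 CPM. Slc48a1, which moves haem out of the phagolysosome, was at 5.91 log2 CPM. Per length the order differed, with Hp the highest at 6.28, Slc48a1 at 4.56 and Lrp1, with a transcript of 14888 nt, at 4.40. Flvcr2 was the lowest there at -0.35 log2 CPM, and Hpx, haemopexin itself, was not listed.
All 9 genes of haem synthesis were listed. They ranged from Alas2 at 2.36 log2 CPM to Alas1, the housekeeping counterpart of Alas2, at 6.48 log2 CPM. Per length Alas2 was again the lowest at 1.33, and Urod, a later enzyme of the pathway, the highest at 4.88. In iron storage, the ferritin iron chaperone Pcbp1 was at 7.62 log2 CPM and Ncoa4, the receptor that takes ferritin to lysosomes, at 6.28 log2 CPM, while the mitochondrial ferritin Ftmt was not listed.
In iron uptake, Trf, the carrier transferrin (drawn as Tf in the plot by role), was at 6.76 log2 CPM and the endosomal ferrireductase Steap3 at 6.19 log2 CPM. Per length Trf stood at 5.40, beside its receptor Tfrc at 5.08, whereas the second receptor, Tfr2, was not listed. The lowest listed uptake genes per length were Cybrd1 at -1.07 and Steap2 at -0.85, while on the log2 CPM scale Steap1 was the lowest at 0.14. The other export genes were lower than Slc40a1 and Cp, with Heph, an oxidase related to Cp, at 1.65 and Hephl1 at 0.64 log2 CPM. The ferroportin-blocking hormone gene Hamp was not listed.
All 6 genes of mitochondrial iron handling were listed, led by the scaffold for iron-sulfur clusters, Iscu, at 6.76 log2 CPM, which was also the highest per length at 6.27. The iron importers Slc25a28 and Slc25a37 were at 3.69 and 4.83 log2 CPM, and in the other order per length, at 3.07 and 2.77. The iron regulatory proteins that read the element, Aco1 and Ireb2, were at 5.54 and 5.63 log2 CPM, and Fbxl5, the iron sensor that has Ireb2 degraded, at 5.33 log2 CPM. Hjv, hemojuvelin, a co-receptor for bone morphogenetic proteins that muscle is known to express, was the highest regulator at 8.80 log2 CPM. Nfe2l2 and Bach1, the activator and the haem-sensing repressor of Hmox1 and ferritin genes, were at 5.59 and 5.19 log2 CPM. Spic, which drives iron-recycling macrophages, was the lowest regulator at -0.10 log2 CPM, and Tmprss6 was not listed.

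**Figure D4:**
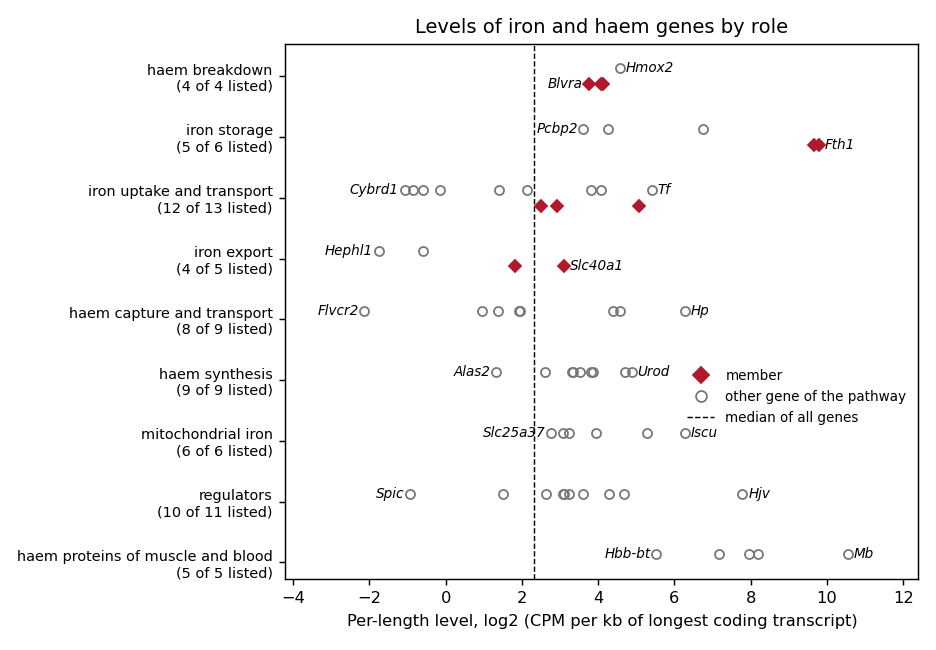
Per-length level (log2 CPM per kb of longest coding transcript) of every listed gene of the set and of the wider list, by role, with members as red diamonds and the others as gray circles, and the lowest and highest gene of each role named. The dashed line is the median of all genes at 2.31. The ferritin genes at 9.80 and 9.66 exceed every other gene drawn but Mb at 10.56.

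Several cell types that handle iron contribute to this bulk tissue, and fewer cells of a type cannot be told apart from less RNA per cell. All 7 skeletal muscle markers were in the top 10% of genes, between 10.56 log2 CPM (Myh2) and 14.65 log2 CPM (Myh4), as the tissue label says. All 7 macrophage markers were listed, from Adgre1 at 4.71 to Lyz2 at 9.12 log2 CPM. Among red blood cell markers, the globin genes Hbb-bs, Hba-a2, Hba-a1 and Hbb-bt were at 7.53, 7.11, 6.65 and 5.02 log2 CPM, Alas2 was at 2.36 log2 CPM and Slc4a1, the anion exchanger of the red cell membrane, at -1.54 log2 CPM. Among 5 neutrophil markers 3 were listed, the highest being S100a8 at 0.52 log2 CPM, and of 5 eosinophil markers none was listed. The part of each cell type in the level of any iron gene was not tested. Gata1, the mutated gene, was not listed either, so the genotype labels were not checked by it.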

How the data were processed

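Poly(A) RNA was sequenced from quadriceps of 3 WT and 3 GATA-1 mutant mice. Per the study's methods, the authors quantified transcripts from read pairs by kallisto pseudoalignment and obtained gene-level CPM values with edgeR, dropping genes that did not exceed 1 CPM in 3 or more libraries. TMM scaling of the logged values and a limma fit followed. Genes above 1 CPM in 3 libraries have positive log2 CPM there, yet listed means went down to -4.08 log2 CPM. How the filter was applied is thus not known, nor is what kept an unlisted gene out. The submitters' processing notes list the mouse builds GRCm39 and mm39, and the transcript annotation is not given in the sources used here. From the deposited table of 14016 rows, only the authors' mean log2 CPM per gene was used. The other 5 value columns hold the authors' own genotype comparison (fold change, test statistic, p-values and log odds) and were neither used nor printed. No column holds values per mouse, so the limma test planned for the genotypes, its replicate block, leaving out each mouse, and other pseudocounts were not run. Depth per library is unknown.

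The 10 members and all lists were chosen with earlier results of these data known. The rule named the 10 members and, for each role of the wider and marker lists, the highest and lowest 2 or 3 genes. Cd163, Aco1, Fbxl5, Nfe2l2 and Bach1 fall outside it and were named for their function after their values were seen. The rule was not followed in full, as no level is printed for some genes it covers, such as Keap1, Bmp6, Nfs1 and Slc46a1. A marker of the red blood cell list is not reported here. One row without a symbol was left out. Of 14015 symbols, 13458 matched GENCODE M21 (GRCm38) directly and 487 through RefSeq synonyms. A coding transcript length was found for 97.7% of genes. The reference is thus of another build than the notes list, and the table itself gives no coordinates. Per-length levels subtract the log2 length in kb of the longest coding transcript. Geometric mean CPM is 2 to the power of the mean log2 CPM. Shared sequence is the percent of 31-base words that also occur, in either orientation, in another gene's transcripts. The element search was tested on simulated sequences. Python 3.11.15, pandas 2.3.3, numpy 2.4.6 and matplotlib 3.10.9 were used.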

Additional observations from a re-analysis of the deposited data

How the results depend on the processing

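No paired analysis was possible because the table holds no values per mouse. Ranking among protein-coding genes only, or among genes with a mean of at least 1 log2 CPM, left 3 members in the top 10%, and ranking per length left 2, without Tfrc. Of the 10 places in the per-length order, 6 were held by the same gene with the mean length of coding transcripts, 6 with the longest transcript of any kind, and 8 with 200 nt taken off each length. With the mean length, which weighs short annotated transcripts like long ones, per-length levels rose by up to 1.55 on the log2 scale. That is the rise of Slc40a1, and it moved Slc40a1 ahead of Hmox1, Blvrb and Blvra. Hmox1 also fell behind Slc11a2 and Blvra under this choice. Using the second longest coding transcript of Fth1, an alternative chosen after the data were seen, gave 10.49 in place of 9.80. The element search matched 4 members, and 6 with 1 unpaired position allowed.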

Other observations

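The deposited table writes several genes under older symbols although the processing notes list a recent mouse build. Of the 53 listed genes of the wider iron and haem list, Hjv was found only as Hfe2, Flvcr1 as Mfsd7b and Flvcr2 as Mfsd7c, and among the markers Adgre1 was found as Emr1. Searching the table by current symbols alone would have left out Hjv at 8.80 log2 CPM. All 10 members of the set were listed under their current symbols.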
